A study of Mus musculus with 12 samples.

Results

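The CC chemokines described here are Ccl2, Ccl5, Ccl6, Ccl7, Ccl8, Ccl9, Ccl11, Ccl17, Ccl19 and Ccl20, measured in mouse cardiac fibroblasts exposed to CCN2 or GDF15. Members were chosen by gene symbol, as the probes annotated to these 10 genes, which gave 13 of the 45281 probes of the array. Each of the 10 genes had at least 1 probe bright enough to test, and 12 of the 13 probes were tested. Total RNA of primary cardiac fibroblasts from female C57/BL6 mice aged 10 to 16 weeks was hybridised to 12 Illumina bead arrays, 4 per group. All cells were kept in medium with 10% fetal calf serum. Control cells received no added protein, the CCN2 group received 200 nmol/L CCN2 and the GDF15 group 500 nmol/L GDF15, both for 48 h. CCN2 is a matricellular protein long known as connective tissue growth factor, and GDF15 (growth differentiation factor 15) is a distant relative of TGF-beta. The doses differ, so the direct comparison of the treatments is a comparison of these 2 exposures and not of equal amounts. The labels do not state how long the control cells were cultured, how the added proteins were made, or whether arrays of the same group stem from different animals or cultures. The p-values therefore rest on a spread between arrays that may be technical.

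Chemokines are small secreted proteins that bind receptors on leukocytes and guide their movement, and the CC family is named for a pair of adjacent cysteines near the amino terminus. Stromal cells such as fibroblasts, and tissue macrophages, release them when stimulated by inflammatory cytokines, largely through NF-kB and, for some members, through STAT and interferon regulatory factors. In the heart they are best known for drawing monocytes and other leukocytes into injured or pressure-loaded muscle, with Ccl2 and its receptor Ccr2 the most studied pair.

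All 13 fibroblast markers examined, among them Col3a1, Lum, Tcf21, Pdgfra and Vim, were bright enough to test in these cultures. Markers of other cell types were measurable too. Of 12 macrophage markers 11 could be tested. Their summed normalized signal (linear scale) ran from 31288 to 34907 in control, 9746 to 10883 after CCN2 and 27064 to 29296 after GDF15. Such a sum mostly follows its brightest gene, here Lyz2, with log2 means of 14.18 in control, 12.70 after CCN2 and 14.28 after GDF15. Lyz2 was 1.49 log2 units lower after CCN2 and was not called after GDF15 (0.09). Of the 11, 8 were lower after CCN2, Cd163 among them with no CCN2 array above background, and 6 after GDF15, and none was higher after either. Over all genes tested, 30.2% were lower after CCN2 and 12.7% after GDF15. C1qb, a complement subunit made by macrophages, was 4.81 log2 units lower after CCN2 and 1.35 lower after GDF15. Mertk, Lyve1 and Adgre1 (the F4/80 antigen) passed neither test, though without background correction Adgre1 was called higher after both, by 0.24 and 0.27, and under median scaling Mertk was called lower after CCN2, at -0.54. In such bulk RNA, fewer cells of a type and less RNA per cell cannot be told apart. Between 19211 and 19691 probes were above background in control, between 18009 and 18979 after CCN2 and between 19004 and 19481 after GDF15.

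Promoter sequences are shown for the members called higher after GDF15 than after CCN2, namely Ccl20, Ccl9, Ccl6 and Ccl8. They were grouped by this direction alone, with log2 differences from 0.26 for Ccl8 to 1.93 for Ccl6. Each line holds the 250 bases just before the annotated start of the gene, 5′ to 3′ on the gene's own strand, from RefSeq on build GRCm38.p6. The windows are chr1:83116516-83116765 on the plus strand for Ccl20, chr11:83578637-83578886 on the minus strand for Ccl9, chr11:83593088-83593337 on the minus strand for Ccl6 and chr11:82114935-82115184 on the plus strand for Ccl8. Capitals mark every match, on either strand, to the motifs named in the next paragraph.
Ccl20: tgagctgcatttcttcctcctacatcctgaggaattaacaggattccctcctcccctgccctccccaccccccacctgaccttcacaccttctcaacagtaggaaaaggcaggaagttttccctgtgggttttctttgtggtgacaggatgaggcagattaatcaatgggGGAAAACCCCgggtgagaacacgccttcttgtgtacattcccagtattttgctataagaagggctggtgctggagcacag
Ccl9: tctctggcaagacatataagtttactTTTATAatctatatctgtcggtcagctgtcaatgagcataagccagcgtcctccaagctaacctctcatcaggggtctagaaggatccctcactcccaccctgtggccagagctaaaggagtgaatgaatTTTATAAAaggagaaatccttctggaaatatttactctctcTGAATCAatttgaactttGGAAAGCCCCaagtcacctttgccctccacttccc
Ccl6: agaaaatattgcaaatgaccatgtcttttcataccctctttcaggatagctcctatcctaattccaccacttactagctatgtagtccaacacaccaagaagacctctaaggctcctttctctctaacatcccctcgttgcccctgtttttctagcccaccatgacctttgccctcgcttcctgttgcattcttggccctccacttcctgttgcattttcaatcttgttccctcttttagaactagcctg
Ccl8: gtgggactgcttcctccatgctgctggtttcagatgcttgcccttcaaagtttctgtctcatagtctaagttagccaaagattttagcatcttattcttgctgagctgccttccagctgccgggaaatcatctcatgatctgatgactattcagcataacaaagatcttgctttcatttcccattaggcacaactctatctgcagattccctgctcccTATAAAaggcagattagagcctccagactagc

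The letters searched were GGGNNTTTCC for NF-kB, GAAANNGAAA for the interferon-stimulated response element, TTCNNNGAA and TTCNNNNGAA for STAT factors, TGANTCA for AP-1, TTGCNNAA for C/EBP factors and TATAAA for the TATA box. Of all 32851 promoter windows of the same length, 1.41% held the NF-kB letters, 2.98% the interferon-stimulated element, 7.02% and 5.85% the STAT letters with 3 and 4 free bases, 6.75% the AP-1 letters, 9.56% the C/EBP letters and 12.4% the TATA letters. Ccl20 held an NF-kB match read on the opposite strand, GGAAAACCCC, 80 to 71 bases before its start. Ccl9 held GGAAAGCCCC, also an NF-kB match on the opposite strand, 35 to 26 bases before its start, an AP-1 match at 53 to 47 bases, and 3 TATA matches, of which 2 overlap. In Ccl8 the only match was TATAAA at 32 to 27 bases before the start, and the Ccl6 window held none of these letters. Promoter entries were found for 6 of the 10 members. Of the other two, Ccl19 held GAAAGTGAAA, the interferon-stimulated letters, 208 to 199 bases before its start, and Ccl17 held TTCTTTGAA and TTCTCTGGAA, the STAT letters with 3 and 4 free bases. Ccl2, Ccl5, Ccl7 and Ccl11 are not shown. A match describes letters in a window and does not show that a factor binds there.

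Ccl2 and Ccl7 are ligands of Ccr2, the receptor by which inflammatory monocytes leave the bone marrow and enter tissue. Values are given as normalized log2 signal, after background correction, quantile normalization and an offset of 16, which shrinks the differences of dim probes. Ccl2 read 9.99, 9.88, 9.64 and 9.70 on the 4 control arrays, 13.76, 13.80, 13.88 and 13.74 on the CCN2 arrays and 12.45, 12.78, 12.26 and 12.57 on the GDF15 arrays. The 3 groups did not overlap, with CCN2 highest and GDF15 between CCN2 and control. Ccl2 was 15.9-fold higher after CCN2 than in control, a log2 difference of 3.99 ± 0.11 (SE, n = 4 arrays a group, adjusted p = 9.78e-15 by limma, Benjamini-Hochberg over all 20445 tested probes). After GDF15 it was 6.56-fold higher than in control (2.71 ± 0.11, adjusted p = 2.82e-11). Ccl7 was measured by 2 probes. Its brighter probe read 11.37, 11.34, 11.32 and 11.33 on the control arrays, 14.06, 14.14, 14.07 and 14.08 on the CCN2 arrays and 12.99, 13.33, 12.81 and 13.29 on the GDF15 arrays, the same order of groups as for Ccl2 and again without overlap. It was 6.72-fold higher after CCN2 (2.75 ± 0.10, adjusted p = 5.02e-13) and 3.39-fold higher after GDF15 (1.76 ± 0.10, adjusted p = 2.16e-09). The second Ccl7 probe gave log2 differences of 2.87 and 1.80, so both probes gave the same direction and nearly the same size.

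Ccl5, known as RANTES, attracts T cells, monocytes and eosinophils. It read 7.22, 7.51, 7.07 and 7.13 on the control arrays, 13.04, 13.09, 13.15 and 13.17 on the CCN2 arrays and 11.31, 11.94, 10.78 and 11.40 on the GDF15 arrays. No group overlapped another, and the GDF15 arrays were spread over 1.16 log2 units where the CCN2 arrays were spread over 0.13. Ccl5 had the largest difference of all members against control in both treatments. It was 58.8-fold higher after CCN2 (5.88 ± 0.17, adjusted p = 2.2e-14) and 17.4-fold higher after GDF15 (4.12 ± 0.17, adjusted p = 3.75e-11). Ranked by signed difference among the 11018 genes tested, Ccl5 was number 2 after GDF15 and number 11 after CCN2.

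Ccl11, or eotaxin, acts through Ccr3 and attracts eosinophils. The brighter of its 2 probes read 5.81, 5.58, 5.62 and 5.41 on the control arrays, 9.29, 9.33, 9.08 and 9.19 on the CCN2 arrays and 7.02, 7.46, 6.97 and 6.81 on the GDF15 arrays. The groups were again apart in the order control, GDF15, CCN2. With an offset of 16 Ccl11 was 12.3-fold higher after CCN2 (3.62 ± 0.13, adjusted p = 1.87e-13), and with an offset of 50 it was 7.64-fold higher (2.93, adjusted p = 1.91e-13). It was 2.75-fold higher after GDF15 (1.46 ± 0.13, adjusted p = 2.02e-07). The dimmer probe, above background on 2 of the 4 control arrays and on all treated arrays, gave smaller log2 differences of 3.06 and 1.06. Of the 8 eosinophil and mast cell markers, 7 had a probe and 2 could be tested. Those were Cpa3 and Kit, at -0.54 and -0.56 after CCN2 (both called lower, Cpa3 with no CCN2 array above background) and at -0.16 and -0.07 after GDF15 (neither called). Siglecf, Epx and Ms4a2 were not above background on any array, Mcpt4 was on 1 control array and Prg2 on 2 GDF15 arrays. Their part in the Ccl11 result was not tested.

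Ccl8 acts in mouse through Ccr8, a receptor of Th2 and regulatory T cells. It read 9.76, 9.72, 9.58 and 9.64 in control, 11.05, 11.02, 10.91 and 11.01 after CCN2 and 11.17, 11.42, 11.10 and 11.32 after GDF15. Here the GDF15 arrays were all above the CCN2 arrays, by a margin that at its closest was small, and both treatments were well above control. Ccl8 was 2.50-fold higher after CCN2 (1.32 ± 0.09, adjusted p = 1.07e-09) and 2.99-fold higher after GDF15 (1.58 ± 0.09, adjusted p = 1.26e-09).

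**Figure D1:**
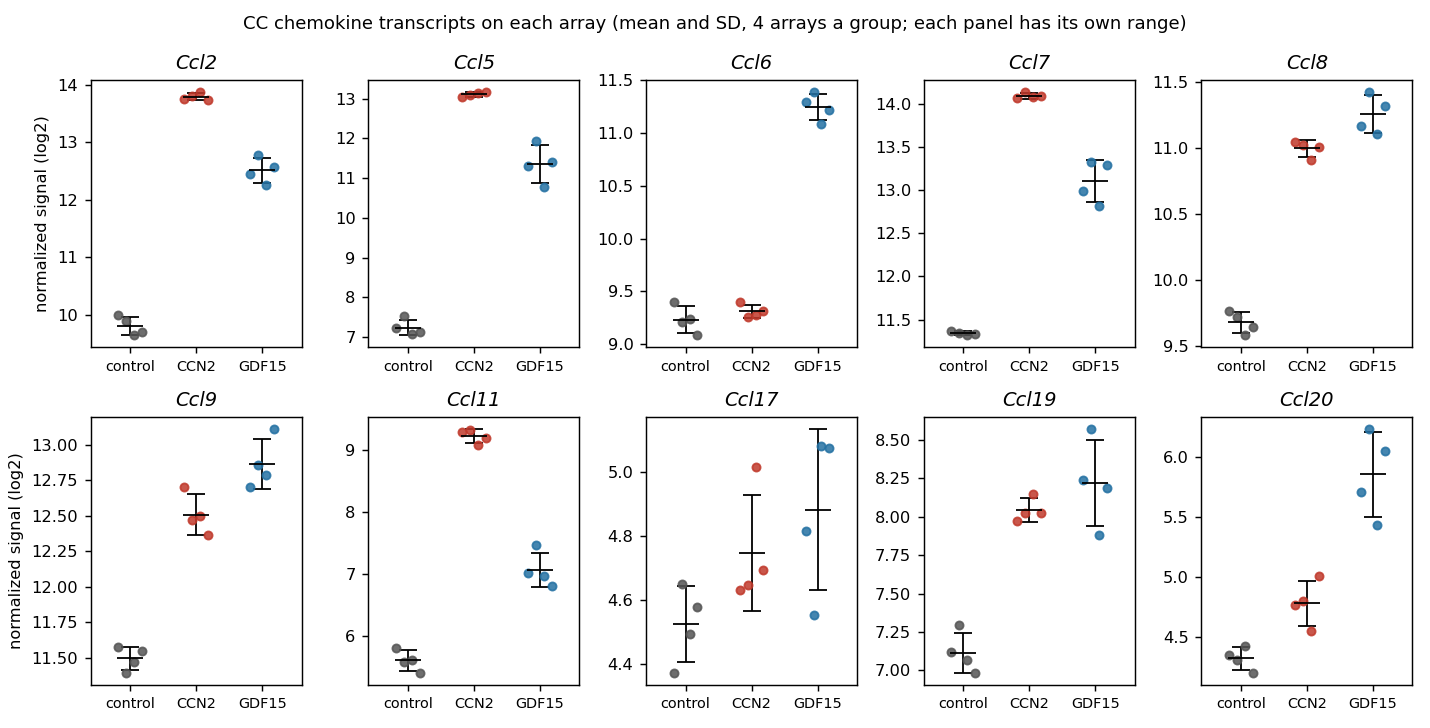
Normalized signal (log2, vertical axis) of each CC chemokine on every array, with 1 panel per gene, control, CCN2 and GDF15 on the horizontal axis, points for arrays and bars for the mean and SD of 4 arrays. Ccl2, Ccl5, Ccl7 and Ccl11 are highest on the CCN2 arrays, while Ccl6 and Ccl20 are highest on the GDF15 arrays; each panel has its own range.

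Ccl6 and Ccl9 are rodent chemokines that act through Ccr1 and are made in quantity by macrophages and other myeloid cells. Ccl6 read 9.40, 9.21, 9.24 and 9.09 on the control arrays, 9.40, 9.25, 9.28 and 9.31 on the CCN2 arrays and 11.29, 11.39, 11.09 and 11.21 on the GDF15 arrays. The control and CCN2 arrays lay in the same range, and every GDF15 array was well above both. Ccl6 was 4.03-fold higher after GDF15 than in control (2.01 ± 0.09, adjusted p = 9.92e-11). After CCN2 it differed from control by 0.08 ± 0.09 (adjusted p = 0.502), with a 95% interval of -0.11 to 0.27. Ccl9 read 11.58, 11.39, 11.47 and 11.54 in control, 12.70, 12.47, 12.49 and 12.36 after CCN2 and 12.70, 12.86, 12.78 and 13.11 after GDF15. Both treatments were above control on every array, and the highest CCN2 array met the lowest GDF15 array. Ccl9 was 2.01-fold higher after CCN2 (1.01 ± 0.10, adjusted p = 2e-07) and 2.58-fold higher after GDF15 (1.37 ± 0.10, adjusted p = 3.16e-08). The summed macrophage marker signal given above was lowest on the CCN2 arrays and below the control range on the GDF15 arrays, while Ccl6 was level with control and Ccl9 above it after CCN2, and both were above control after GDF15. The part of the macrophage signal in these results was not tested.

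Ccl19, Ccl17 and Ccl20 each have a single main receptor on lymphocytes or dendritic cells and lie outside chromosome 11, on chromosomes 4, 8 and 1. Ccl19, the Ccr7 ligand that draws naive T cells and mature dendritic cells to lymph nodes, read 7.12, 7.29, 7.07 and 6.99 in control, 7.97, 8.03, 8.15 and 8.03 after CCN2 and 8.24, 8.57, 7.88 and 8.19 after GDF15. Both treatments lay above control, and the GDF15 arrays spanned the whole CCN2 range. Ccl19 was 1.90-fold higher after CCN2 (0.93 ± 0.12, adjusted p = 4.31e-06) and 2.15-fold higher after GDF15 (1.11 ± 0.12, adjusted p = 2.98e-06).

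Ccl20, the Ccr6 ligand that attracts Th17 cells and immature dendritic cells, was dim. The probe that could be tested read 4.34, 4.31, 4.42 and 4.20 in control, 4.76, 4.80, 4.55 and 5.01 after CCN2 and 5.71, 6.23, 5.43 and 6.05 after GDF15. It was above background on 0 of 4 control arrays, 3 of 4 CCN2 arrays and 4 of 4 GDF15 arrays, and the groups did not overlap. Because control gives only a bound, the fold is a minimum, set against the dimmest signal above background on each control array. Ccl20 was at least 2.48-fold higher after GDF15 (fitted log2 difference 1.53 ± 0.14, adjusted p = 5.52e-07) and at least 1.18-fold higher after CCN2 (0.46 ± 0.14, adjusted p = 0.0127). With a larger offset of 50 the CCN2 difference was 0.19 and its call was lost (adjusted p = 0.0816), and the GDF15 difference was 0.77 (adjusted p = 5.85e-06). A second Ccl20 probe was not above background on any of the 12 arrays and was not tested.

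Ccl17, the Ccr4 ligand that attracts Th2 and regulatory T cells, was dim as well. It read 4.37, 4.65, 4.49 and 4.58 in control, where 2 of 4 arrays were above background, 4.63, 4.65, 5.01 and 4.69 after CCN2 and 4.82, 4.55, 5.08 and 5.08 after GDF15. The ranges of all groups overlapped. The difference after CCN2 was 0.22 ± 0.12 (adjusted p = 0.141, 95% interval -0.04 to 0.48). After GDF15 it was 0.36 ± 0.12, just past the threshold (adjusted p = 0.0482). That call was kept in 5 of the 22 other settings and array omissions tried, with adjusted p from 0.00966 to 0.142. It was lost when any single control array was left out (0.055 to 0.142), and likewise without CCN2 replicate 1, 2 or 4 (0.0532 to 0.0555) and without GDF15 replicate 1, 3 or 4 (0.062 to 0.137).

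Counted over these 10 members, 8 passed the test as higher after CCN2 and 0 as lower. Of all genes tested, 25.7% were called higher and 30.2% lower in that comparison. Among the members the exceptions were Ccl6 and Ccl17. Members were chosen with earlier results of these data known, so the shares are set side by side as a description only. Of the 7 other CC ligands tested, 3 were higher and 4 lower after CCN2, and 2 were higher and 3 lower after GDF15. Ccl20 reached the detection filter through treated arrays alone, so it could enter the counts against control only by differing, and without it the count after CCN2 was 7 of 9. At least a 2-fold higher signal was reached by 6 members, against 6.24% of all genes. That count was 5 under median scaling and without CCN2 replicate 1 or control replicate 2, when Ccl9 fell under 2-fold. The median log2 difference was 1.17 over the members and -0.02 over all genes. After GDF15 all 10 members passed as higher, Ccl17 with the limits just given, where 9.76% of all genes were higher and 12.7% lower, and without Ccl20 the count was 9 of 9. At least 2-fold was reached by 9 members, and by 8 without Ccl20, against 1.29% of all genes, and the median was 1.56 against -0.02. Control and treated arrays were fully apart for 8 members after CCN2, where 54% of all genes were apart in either direction, and for 9 members after GDF15, where 25.8% were. The treatments share the same 4 control arrays, so their counts are not independent. When each array was scaled by its median in place of quantiles, the split of all genes moved to 14.8% higher and 43.1% lower after CCN2 and to 6.7% and 14% after GDF15. That scaling moved the median of all tested probes by -0.17 after CCN2 and by -0.05 after GDF15.

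**Figure D2:**
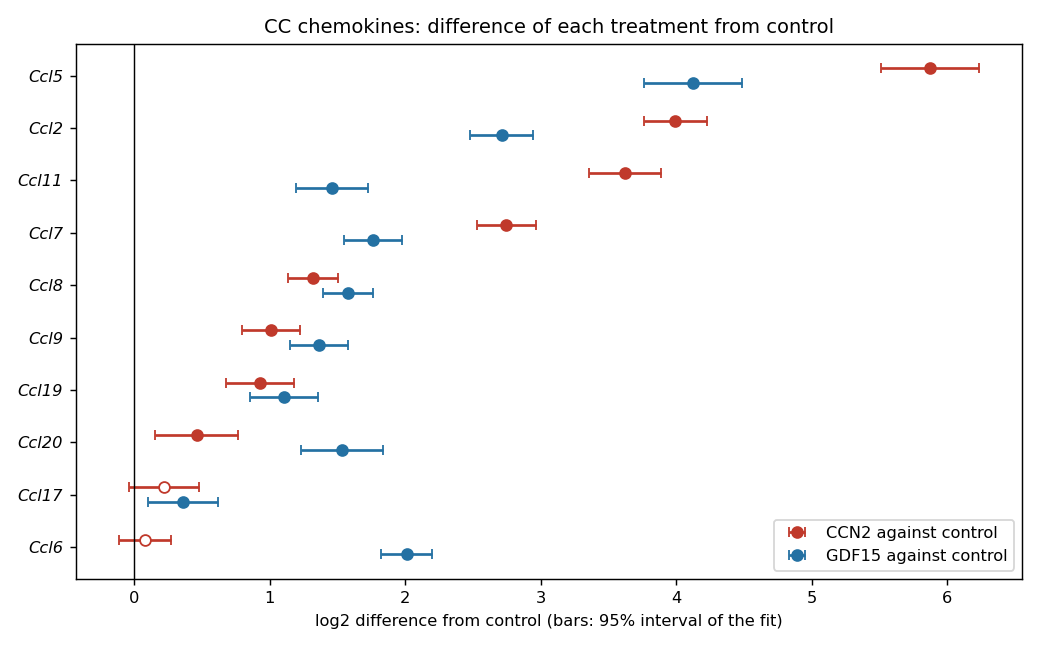
Log2 difference from control (horizontal axis) of each CC chemokine after CCN2 and after GDF15, with the 95% interval of the fit over 12 arrays as bars. Filled points passed the threshold and open points did not; Ccl6 and Ccl17 after CCN2 are open, and Ccl5 has the largest difference in both treatments, 5.88 and 4.12.

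Set against all 11018 genes by signed difference, the members that were highest after CCN2 were Ccl5, Ccl2 at number 38, Ccl11 at number 51 and Ccl7 at number 96. After GDF15 more members lay near the top of the ranking. Ccl2 was number 15, Ccl6 number 33, Ccl7 number 47, Ccl8 number 53 and Ccl20 number 56. Ccl11 was number 60, Ccl9 number 67, Ccl19 number 113 and Ccl17 number 869. The rank of Ccl20 carries the limit given for the counts, as it reached the detection filter through treated arrays alone. On the linear scale the summed normalized signal of the 10 members lay between 7923 and 8655 in control, between 49073 and 50610 after CCN2 and between 25714 and 34734 after GDF15.

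Compared directly, the treatments split the members. Ccl2, Ccl5, Ccl7 and Ccl11 were lower after GDF15 than after CCN2, and Ccl6, Ccl8, Ccl9 and Ccl20 were higher, so 4 members were called in each direction, where 23.8% of all genes were called higher and 22% lower. At least a 2-fold difference was reached by 2 members higher and 3 lower, against 5.03% and 3.82% of all genes. The count of higher members fell to 1 without CCN2 replicate 3 or GDF15 replicate 2, when Ccl20 fell under 2-fold. It was also 1 with the submitters' processed values, without background correction and with an offset of 50. The count of lower members rose to 4 without GDF15 replicate 2 or 4 and with the mean of a member's tested probes, when Ccl7 passed 2-fold. Under median scaling 33% of all genes were called higher and 12.2% lower, whatever the size of the difference. The median of all tested probes moved by 0.12. Ccl11 had the largest fall, at -2.16 ± 0.13 (4.47-fold lower, adjusted p = 3.19e-10), and its dimmer probe gave -2.00. Ccl5 differed by -1.75 ± 0.17 (adjusted p = 2.56e-07), Ccl2 by -1.28 ± 0.11 (adjusted p = 4.7e-08) and Ccl7 by -0.98 ± 0.10 (adjusted p = 5.59e-07). The second Ccl7 probe gave -1.07. For these 4 genes every GDF15 array lay below every CCN2 array.

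On the other side Ccl6 was 3.82-fold higher after GDF15 than after CCN2 (1.93 ± 0.09, adjusted p = 1.94e-11) and Ccl20 2.11-fold higher (1.07 ± 0.14, adjusted p = 1.01e-05). The Ccl20 difference was 0.69 without background correction and 0.58 with an offset of 50, both under 2-fold and both still called. Ccl9 differed by 0.36 ± 0.10 (adjusted p = 0.00875) with groups that met. Ccl8 differed by 0.26 ± 0.09 (adjusted p = 0.0253), and its call was lost without CCN2 replicate 3 (0.0732), GDF15 replicate 2 (0.0907) or GDF15 replicate 4 (0.0536). Ccl19 differed by 0.18 ± 0.12 (adjusted p = 0.257, 95% interval -0.08 to 0.43) and passed under median scaling (0.39, adjusted p = 0.0274) and without GDF15 replicate 3 (0.29, adjusted p = 0.0454). Ccl17 differed by 0.14 ± 0.12 (adjusted p = 0.407, 95% interval -0.12 to 0.39). The groups were fully apart for 7 members, 3 above and 4 below, where 41.8% of all genes were apart.

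**Figure D3:**
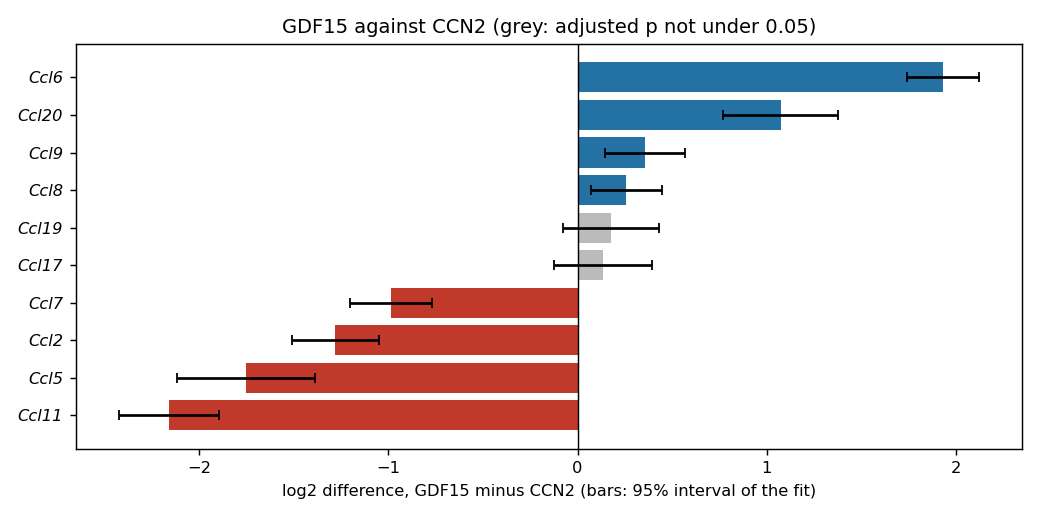
Log2 difference between GDF15 and CCN2 (horizontal axis, GDF15 minus CCN2) for each CC chemokine, as coloured bars from 0 with the 95% interval of the fit as whiskers. Differences run from -2.16 for Ccl11 to 1.93 for Ccl6, and the grey bars, Ccl17 and Ccl19, did not pass the threshold.

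The GDF15 arrays varied more than the others for these members. The SD over 4 arrays had a median over the members of 0.12 in control, 0.07 after CCN2 and 0.25 after GDF15, where the medians over all genes were 0.11, 0.13 and 0.14. The GDF15 SD was the largest of the 3 in 9 of the 10 members and in 46.2% of all genes. GDF15 replicate 2 was the highest GDF15 array for 8 of the members, as it was for 20.6% of all genes. Replicates 2 and 4 both lay above replicates 1 and 3 for 6 members, against 20.9% of all genes. No single GDF15 array decided a comparison with control other than that of Ccl17.

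Each member's profile over the 12 arrays was set against 10707 other genes by the root mean square distance of log2 values after centring each gene. The closest genes are named as a description of these arrays. Ccl2 was closest to Hp, the plasma protein haptoglobin, at 0.23 log2 units, and to Cfb, complement factor B, at 0.25. Ccl7 was closest to Sod2 (0.15), the mitochondrial superoxide dismutase, and Timp1 (0.18), an inhibitor of matrix metalloproteinases. Ccl5 lay near Slpi (0.29) and S100a8 (0.45), and Ccl11 near Tnfaip3 (0.20) and Steap1 (0.20). Ccl8 and Ccl9 had the same nearest genes, the interferon-induced Ifi47 and Ifit3, at 0.17 and 0.17 for Ccl8 and at 0.15 and 0.16 for Ccl9. Ccl19 was nearest to Cxcl12 (0.16), a CXC chemokine of stromal cells, and Ifit3 (0.16). Ccl6 had Ccn4 and Gal3st2 (both 0.30) and Ccl20 had Ifitm6 (0.17) and Rnase2b (0.27). Ccl17, which varied little, was nearest to Elf1 and Mgat3 (both 0.12). Between members the shortest distances were 0.17 for Ccl8 and Ccl9 and 0.24 for Ccl19 to each of these, followed by 0.38 for Ccl9 and Ccl20 and 0.39 for Ccl6 and Ccl20. The 3 pairs among Ccl2, Ccl7 and Ccl11 lay at 0.53 to 0.55.

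Of the CC ligand genes considered, 11 lie on chromosome 11 in RefSeq's annotation, 7 of them members, in the order Ccl2, Ccl7, Ccl11, Ccl12, Ccl8, Ccl1, Ccl5, Ccl9, Ccl6, Ccl3 and Ccl4. Among neighbours the direction was not shared throughout. Ccl12, which like Ccl2 and Ccl7 is a Ccr2 ligand and lies between Ccl11 and Ccl8, had means of 10.97 ± 0.10 in control, 9.05 ± 0.11 after CCN2 and 11.16 ± 0.18 after GDF15 (SD, n = 4). It fell by 1.93 after CCN2 (adjusted p = 3.64e-11), differed from control by 0.18 after GDF15 (adjusted p = 0.226) and was 2.11 higher after GDF15 than after CCN2 (adjusted p = 2.1e-11). Ccl3 and Ccl4, macrophage inflammatory proteins at the other end of the row, were 4.26 and 1.91 higher after CCN2 and 1.94 and 1.18 higher after GDF15. Ccl1 was not above background on any array.

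**Figure D4:**
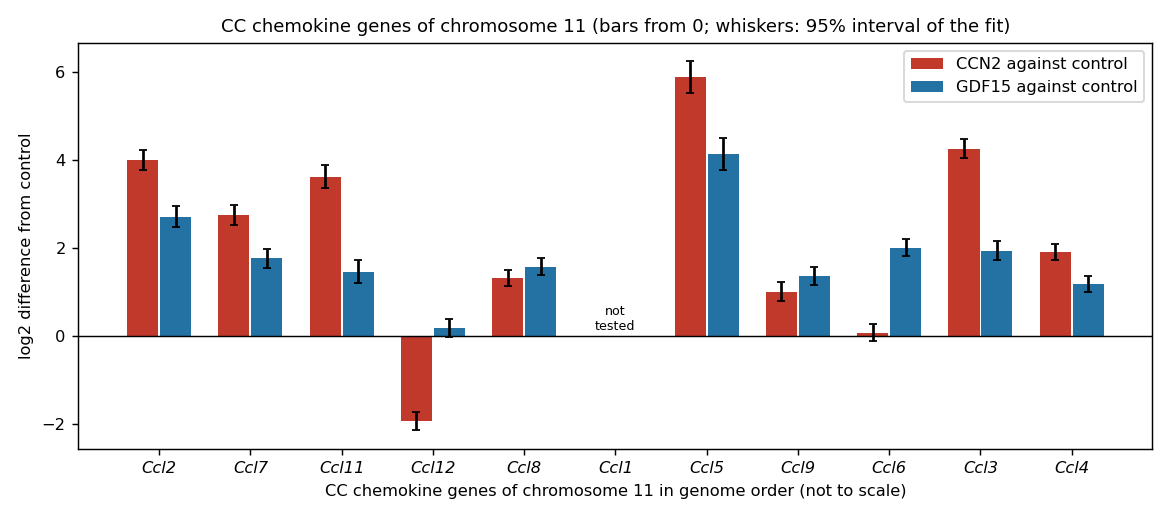
Log2 difference from control (vertical axis) of the CC chemokine genes of chromosome 11, placed in genome order and not to scale, after CCN2 and after GDF15, with 95% intervals of the fit as whiskers. Ccl12, with a CCN2 difference of -1.93, stands between Ccl11 at 3.62 and Ccl8 at 1.32; Ccl1 was not tested.

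Beyond the 10 members, 14 further CC ligands were listed, 12 had a probe and 7 could be tested. After CCN2 3 were higher and 4 lower, and after GDF15 2 were higher, 3 lower and 2 did not pass, so these ligands did not share one direction. The shares of all genes were 25.7% higher and 30.2% lower after CCN2, and 9.76% and 12.7% after GDF15. Ccl27a, a Ccr10 ligand, was 0.76 lower after CCN2 and 0.41 lower after GDF15 on the log2 scale. Ccl25, a Ccr9 ligand, was 0.63 higher after CCN2 (adjusted p = 8.33e-05) and differed by 0.18 after GDF15 (adjusted p = 0.291). Ccl21a, which shares the receptor Ccr7 with Ccl19, was not above background on any CCN2 array, so it could enter the CCN2 count only as lower, and was at least 3.08-fold lower there, and it fell by 0.58 after GDF15. Its near-identical copy Ccl21c gave -1.58 and -0.52, and the probes may read both genes. Ccl24, Ccl26 and Ccl28 were not above background on any array and Ccl22 on 1.

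The receptors of these ligands were not measurable. Of 10 CC chemokine receptors with a probe, 0 could be tested. Ccr7 was above background on 2 arrays and the other nine, Ccr2 among them, on 0. Of the atypical receptors, which bind chemokines without signalling through G proteins, 4 of 5 were tested. After CCN2 2 were higher and 0 lower, where 25.7% of all genes were higher and 30.2% lower. After GDF15 1 was higher and 0 lower, where those shares were 9.76% and 12.7%. Ackr1, which carries inflammatory chemokines on red cells and venous endothelium, was 2.70 higher after CCN2 (adjusted p = 1e-13) and 0.98 higher after GDF15 (adjusted p = 4.24e-07). Ccrl2 was 1.09 higher after CCN2 (adjusted p = 3.67e-07) and differed by 0.19 after GDF15 (adjusted p = 0.296). Ackr2 and Ackr4 passed neither test, at 0.10 and -0.11 after CCN2 and at 0.17 and 0.02 after GDF15. Under median scaling Ackr4 was called lower after CCN2, at -0.39.

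Genes of the pathways that act before the chemokines were read from the same fit. Among NF-kB subunits and inhibitors 13 of 15 were tested, and 11 were higher and 0 lower after CCN2, with 8 higher and 0 lower after GDF15. All genes gave 25.7% higher and 30.2% lower after CCN2, and 9.76% and 12.7% after GDF15. Without Rel, which was not above background in control, the CCN2 count was 10 of 12. Under median scaling the CCN2 count became 10 higher and 1 lower. The median log2 difference of the list was 1.65 after CCN2 and 0.65 after GDF15. Tnfaip3, or A20, a ubiquitin-editing brake on NF-kB, was 3.54 higher after CCN2 and 1.17 after GDF15. Nfkbiz was 2.99 and 1.14 higher, and Nfkbia, the inhibitor that holds NF-kB in the cytoplasm, 2.38 and 0.90. Tnip1, Nfkbie and Bcl3 were 2.14, 1.78 and 1.74 higher after CCN2 and 0.74, 0.65 and 0.86 higher after GDF15. In the direct comparison 10 of the 13 were lower after GDF15 than after CCN2 and 0 higher, where 22% of all genes were lower and 23.8% higher.

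Among cytokines known to induce chemokines 9 of 13 were tested, with 6 higher and 1 lower after CCN2 and 5 higher and 0 lower after GDF15. For all genes the shares were 25.7% higher and 30.2% lower, and 9.76% and 12.7%. Il1b, Il1a and Csf2 were not above background in control, so against control they could be called only as higher. Csf2 passed the detection filter through the CCN2 arrays and was not called after GDF15. Among the genes above background on at least 1 array of both groups compared, 3 were higher and 1 lower of 6 after CCN2, and 3 higher and 0 lower of 5 after GDF15. The count after GDF15 also leaves out Lta, not above background on any GDF15 array. Il1b was at least 256-fold higher after CCN2 and at least 2.07-fold higher after GDF15, and Il1a at least 125-fold and at least 3.71-fold. Tnf was 3.76 and 1.24 higher, and Il6 4.38 and 1.90 higher, on the log2 scale. Csf2 was at least 43.5-fold higher after CCN2 and was not above background on any control or GDF15 array. Il33, an alarmin of stromal cells, went in opposite directions, at -2.34 after CCN2 (adjusted p = 4.66e-11) and 0.98 after GDF15 (adjusted p = 1.56e-05). Il4, Ifng and Ifnb1 were not above background on any array.

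Receptors for such cytokines were also read. Of 13 tested, 8 were higher and 2 lower after CCN2 and 6 higher and 0 lower after GDF15, and under median scaling the counts were 5 and 3, and 5 and 0. With the main scaling 25.7% of all genes were higher and 30.2% lower after CCN2, and 9.76% and 12.7% after GDF15. Without Csf2rb, not above background in control, the GDF15 count was 5 of 12. Il13ra1 was 2.08 higher after CCN2 and 0.75 after GDF15, and Ifnar2, a type I interferon receptor chain, 1.42 and 0.77. Tnfrsf1b was 0.79 higher after CCN2 and differed by 0.07 after GDF15, where it was not called. The 2 receptors called lower after CCN2 were Ifngr1 at -0.46 and Csf2ra at -0.32. Il1rap, the shared chain of the IL-1 receptor, was 0.46 and 0.74 higher, and Il4ra 0.57 and 0.51 higher. The call of Il1rap after CCN2 and that of Il17rc after GDF15 were lost under median scaling.

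Of 10 tested STAT, IRF and C/EBP factors, 6 were higher and 3 lower after CCN2 and 5 higher and 2 lower after GDF15. All genes gave 25.7% higher and 30.2% lower after CCN2, so the 30% lower in this list was near that share. After GDF15 all genes gave 9.76% and 12.7%. Irf7, the interferon regulatory factor induced by type I interferon, was 2.88 higher after CCN2 and 2.33 after GDF15. Cebpb was 1.05 and 0.78 higher, Cebpd 1.02 and 0.45, Stat2 0.81 and 0.74 and Stat3 0.64 and 0.63. Irf5, an interferon regulatory factor of macrophages, was lower in both, at -1.13 and -0.36.

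The last list held proteases that trim chemokines and genes of the proteoglycans that hold them at the cell surface. Of 16 tested, 7 were higher and 4 lower after CCN2 and 5 higher and 1 lower after GDF15, and under median scaling 5 and 6, and 4 and 2. With the main scaling, 43.8% higher and 25% lower after CCN2 stood beside 25.7% and 30.2% of all genes, so the lower share was near that of all genes. After GDF15, 31.2% and 6.25% stood beside 9.76% and 12.7%. Mmp9, a metalloproteinase that cleaves several chemokines, was 5.09 higher after CCN2 and 3.09 after GDF15. Dpp4, the exopeptidase that removes the first residues of many chemokines, was 2.22 lower after CCN2 (adjusted p = 1.75e-12) and differed by 0.18 after GDF15 (adjusted p = 0.209). Among the syndecans, Sdc1 and Sdc4 were 1.84 and 1.09 higher after CCN2 and 0.39 and 0.83 higher after GDF15, the Sdc1 call after GDF15 being lost under median scaling. Sdc2 fell by 1.30 after CCN2 and differed by -0.20 after GDF15 (adjusted p = 0.134). Ext1, which builds heparan sulfate chains, was 1.27 and 0.70 higher.

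Markers of other cells that make or answer to chemokines were read beside the members. The 4 testable neutrophil markers summed to 125 to 148 in control, 2452 to 2793 after CCN2 and 559 to 724 after GDF15 (linear scale). S100a8 and Camp rose in both treatments, while S100a9 and Retnlg were not above background on any array and Elane on 1. Mpo, not above background in control, was called higher after CCN2 and not called after GDF15. Csf3r differed by -0.02 and 0.08 and was not called in either. The sum over 5 dendritic cell markers was 955 to 1102 in control, 706 to 845 after CCN2 and 1016 to 1198 after GDF15, with Xcr1, Clec9a and Cd209a not above background. Cd83 was lower in both treatments (-1.70 and -1.37). Itgax was lower after CCN2 (-0.45, no CCN2 array above background) and higher after GDF15 (0.56). Fscn1 was lower after CCN2 only (-0.36), and Zbtb46 and Siglech passed neither test. The 9 endothelial markers summed to 3569 to 3819, 2083 to 2272 and 3125 to 3716, and the 7 pericyte markers to 1088 to 1170, 401 to 494 and 698 to 824. Of 10 lymphocyte markers 1 could be tested, and of 8 cardiomyocyte markers 2. The fibroblast markers summed to 58671 to 63191 in control, 51108 to 54507 after CCN2 and 55684 to 66443 after GDF15, with 1 higher and 6 lower after CCN2 and 1 higher and 3 lower after GDF15. Over all genes 25.7% were higher and 30.2% lower after CCN2, and 9.76% and 12.7% after GDF15. The part of the marker shifts in the chemokine results was not tested.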

How the data were processed

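The labels give 4 arrays each of untreated, CCN2-treated and GDF15-treated cells; the sample titles share no replicate numbers between groups. Per the file headers, the deposited non-normalized table gives for each probe and array the intensity and the detection p-value. GenomeStudio 2010.1 is the tool that the submitters' processing notes name. A second deposited table holds processed intensities that keep the raw ranks of the probes and differ by at most 0.392% from averaged sorted raw columns, so they are quantile-normalized on a linear scale. It served as an alternative.

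Raw intensities were corrected (normexp, from detection p-values), quantile-normalized and put on the log2 scale with neqc (offset 16; limma 3.58.1, R 4.3.3). Probes needed a detection p-value below 0.05 on 4 or more of the 12 arrays, which 20445 of 45281 reached and 24836 did not. Group means over all 12 arrays (9 residual degrees of freedom) were fitted with lmFit and eBayes, and two-sided p-values were Benjamini-Hochberg adjusted over all tested probes of a comparison, at a threshold of 0.05. Gene counts use each gene's brightest tested probe, over 11018 genes. Of all probes, 34885 carry 1 gene symbol in the platform annotation, 18 several and 10378 none. For a probe below background on every array of a group, "at least N-fold" sets the bright group's mean against the lowest signal above background on the dim group's arrays, or the probe's own where higher. Every member is named; of each pathway list, up to 6 genes past the threshold with the largest differences, and per member its 2 closest profiles. Ccl25, Rel, Csf2rb, Ifngr1, Csf2ra, Ackr2, Ackr4 and the marker genes were named after their values were seen. Members and lists were chosen with earlier results of these data known. The fit was tested on simulated data. The number of arrays limits the precision.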

Additional observations from a re-analysis of the deposited data

Results flagged for a closer look

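A single value stood apart from its group. Ccl17 read 5.01 (log2) on CCN2 replicate 3, where the next array of that group read 4.69, a gap of 0.840 of the group's whole range and past the critical ratio of Dixon's test for 4 arrays. It was 1 of 30 groups of 4 arrays examined (10 members in 3 groups), and chance flags about 1 in 20 such groups. Without this array the Ccl17 difference between GDF15 and control had an adjusted p of 0.0367 by limma, against 0.0482 with all arrays. Ccl17 was dim, and the lowest log2 signal above background on CCN2 replicate 3 was 4.57. Before correction and normalization the CCN2 arrays read 45.8, 48.5, 50.2 and 46.1 for Ccl17, in replicate order.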

How the results depend on the processing

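Each comparison was repeated under 10 other settings and with each of the 12 arrays left out. The number of probes called stayed within 1.5 times the main count throughout: without single arrays it ran from 9729 to 10860 for CCN2 against control (10479 with all arrays), 3222 to 4108 for GDF15 against control (4088) and 7832 to 8561 for GDF15 against CCN2 (8534). The number of members called ran from 7 to 8, 9 to 10 and 7 to 9 over all settings. Of the differences of single members, 1 changed sign: Ccl6 after CCN2 was -0.12 (adjusted p = 0.395) with median scaling, and was not called in either setting. Besides it, 21 calls were lost, 17 of them of Ccl17 after GDF15, and 2 were gained, both of Ccl19 in GDF15 against CCN2. The causes were not tested. Dim signal limits Ccl17, Ccl20 and Ccl11, whose folds the offset compresses. The number of members at least 2-fold higher after GDF15 than in control was 9, and 7 with an offset of 50. It was 8 without background correction, with the submitters' processed values and without GDF15 replicate 2. Without background correction Ccl20 (1.02) and Ccl11 (1.14) stayed above 2-fold, and the member lost was Ccl19. With an offset of 50 Ccl20 (0.77) was lost as well. The lowest Ccl19 difference was 0.95 over the other settings and 0.99 with single arrays left out. No paired analysis was possible because the groups share no replicate numbers in the labels.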
